A study of Rattus norvegicus with 24 samples.

Results

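The 10 circadian clock genes described here are Per1, Per2, Per3, Arntl (also known as Bmal1), Clock, Cry1, Cry2, Nr1d1, Nr1d2 and Dbp. They were taken by name from the array's gene annotation, and they are measured by 12 of its 41012 probes and form 10 of its 35526 named features. The study gave male Wistar rats MK-801 (dizocilpine), which blocks the open channel of NMDA-type glutamate receptors, by intraperitoneal injection at a high dose of 0.16 mg/kg or a low dose of 0.08 mg/kg, or saline, and took the brains 40 min later. The sample titles mark every group as Control (Control+Saline, Control+high and Control+low), and they do not say what Control means. The labels name 9 rats, 3 of them given saline, of 300 to 350 g, aged 9 weeks in the sample labels and 10 weeks in the design text. Transcripts of 6 dissected regions were measured on 24 arrays of 2 colours, each hybridised with MK-801 and saline RNA of 1 region. For every region and dose, 12 in all, there is a pair of arrays of opposite dye, with the MK-801 RNA in Cy5 on replicate 1 and in Cy3 on replicate 2. How many rats were pooled in an extract is not stated. With 3 saline rats for 6 regions, regions must share rats, so the 6 regions counted as n are not independent, and the p-values measure the spread between regions and not between rats. The clock time of injection is not stated in the labels used here.

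As background, the mammalian clock is a feedback loop of transcription that runs in nearly every cell. Clock and Arntl proteins form a dimer that binds E-box sequences and activates the Per and Cry genes, and Per and Cry proteins return to the nucleus and inhibit that dimer. A second loop runs through Nr1d1 and Nr1d2, which encode the nuclear receptors REV-ERB alpha and beta, repressors of Arntl, while Dbp encodes a transcription factor of the PAR bZIP family that carries the rhythm to output genes and acts on D-boxes. Per1 is also an immediate early gene: light, acting through glutamate and NMDA receptors in the suprachiasmatic nucleus, and glucocorticoids in many tissues raise it within an hour.

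Ratios below are log2 of MK-801 over saline, so that a positive value means more transcript in treated rats. A region's value is the mean of its dye-swapped pair, and a value across regions comes from a limma fit over the 6 regions with its standard error (SE) and a Benjamini-Hochberg adjusted p over all genes tested, with a threshold of 0.05. A gene was tested where a channel was well above background on both arrays in at least 4 of 6 regions. The median ratio over genes was near 0 on every array, as the loess normalisation within arrays sets it. Of the spots, 56.8% to 89.7% were well above background. The ratios of the arrays of a pair correlated at -0.44 to -0.14 across probes, which are not independent replicates, so single arrays are given here only beside their swapped partner. Region markers were read in the saline channels and set against the mean of the other 5 pieces. In their own piece they were above it for the ventral striatum (9 of 9 markers), midbrain (7 of 7), cortex (8 of 8) and hippocampus (6 of 7). In the piece labelled hypothalamus only 6 of 11 hypothalamic markers were above that mean, with a median difference of 0.04. Of these, Pomc and Gal were highest in the midbrain and Ghrh in the hippocampus. Otp was highest in the hypothalamus piece, but by only 0.04 over that mean. Pmch (4.51) and Trh (3.17), precursors of hypothalamic peptides, stood far above the other pieces there, as did 6 of 6 thalamic markers (median 2.90). No marker list was set for the amygdala.

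At the high dose, Per1 was the single clock gene that passed the threshold, and it was higher in treated rats in all 6 regions. Across regions Per1 rose by 0.17 ± 0.04 (SE over 6 regions; adjusted p = 0.044, limma), an increase of 12.8% with a 95% interval of 1.06-fold to 1.2-fold. Of the other 8 clock genes tested, none passed. Of all 22993 genes tested, 2.21% passed in either direction, and 1 of 9 clock genes is too small a count to set apart from that share. At an unadjusted p under 0.05 there were 5 of the 9 clock genes and 12.1% of all genes. The median size of the ratio was 0.07 over the 9 clock genes and 0.03 over all genes tested. The 95% intervals of the 8 that did not pass lay between -0.19 and 0.16.

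**Figure D1:**
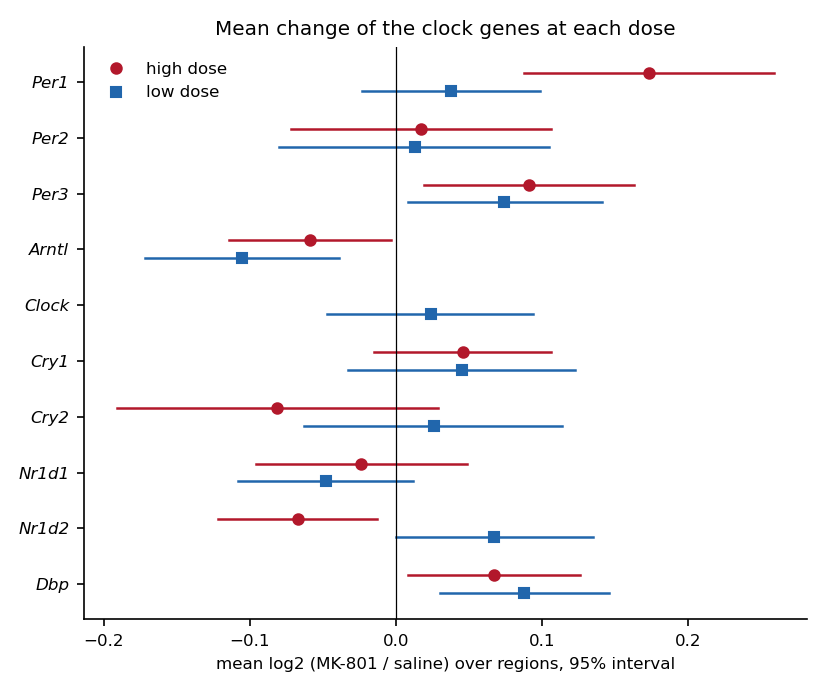
Mean log2 ratio of MK-801 over saline across regions for each clock gene (rows), with 95% intervals from the limma fit, at the high dose (red circles) and the low dose (blue squares). Per1 at the high dose, at 0.17, lies farthest from 0, and Clock has no high-dose value because it was not tested there.

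The Per1 probe lies on chromosome 10 (chr10:55881463-55882047, plus strand, rn3), a span of 585 bases for a probe of 60 bases, so its sequence is interrupted in the genome. No annotation of that build was used, and exons are therefore not stated. It is shown because every Per1 value rests on it, and it has no part in capitals:

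Per1: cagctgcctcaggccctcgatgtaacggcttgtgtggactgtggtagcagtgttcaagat

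It was well above background in both channels on all 24 arrays. Log2 intensities of Per1 at the high dose were 10.69 in MK-801 and 10.41 in saline RNA of the cortex, 9.92 and 9.58 in the midbrain, and 9.89 and 9.71 in the hypothalamus. They were 10.58 in MK-801 and 10.48 in saline RNA of the ventral striatum, 10.03 and 9.95 in the amygdala, and 9.96 and 9.91 in the hippocampus. The MK-801 level was thus above the saline level in each region, with the widest gaps in midbrain and cortex.

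Single arrays show how far the dye moved Per1. With MK-801 RNA in Cy5, the high-dose ratio was 0.12 in the cortex, 0.09 in the hypothalamus, 0.05 in the midbrain, -0.04 in the ventral striatum, -0.08 in the hippocampus and -0.09 in the amygdala. With MK-801 RNA in Cy3 it was 0.44 in the cortex, 0.28 in the hypothalamus, 0.64 in the midbrain, 0.24 in the ventral striatum, 0.17 in the hippocampus and 0.24 in the amygdala. The orientations did not overlap, and 3 of 6 arrays of the first and 6 of 6 of the second were above 0. The dye effect, Cy5 over Cy3, averaged -0.14 ± 0.07 (SD, n = 12 pairs), close in size to the treatment value, and it cancels in a pair mean only as far as it is the same on both arrays. The pair means were 0.34 ± 0.42 in the midbrain, 0.28 ± 0.22 in the cortex, 0.19 ± 0.13 in the hypothalamus, 0.10 ± 0.20 in the ventral striatum, 0.08 ± 0.23 in the amygdala and 0.05 ± 0.18 in the hippocampus (SD of the 2 arrays, which includes the dye effect). No single region can be told from 0 on that spread.

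The Per1 value kept its sign in 21 of 21 alternative settings but its call in only 6 of them. Per1 has 1 probe, so settings that change only probes, the filter or the error estimate return the same 0.173 and could not turn its sign. Kept calls included such repeats, with limma adjusted p of 0.0475, 0.0435 and 0.0416. Another was replicate 2 alone (0.00155), where the dye effect does not cancel. Processed signals of the scanner software gave an adjusted p of 0.121. It was 0.118 in the authors' deposited table, 0.784 with median centring, 0.0745 at an offset of 16, 0.0584 with no filter and 0.0755 with scan day as a block. When all arrays entered a fit with a dye term it was 0.00803, but that fit counted the arrays of a pair separately, although they may hold the same extracts. Leaving out a region ended the call for the cortex (adjusted p = 0.16), hypothalamus (0.117), midbrain (0.0995), ventral striatum (0.0777) and amygdala (0.058), and kept it for the hippocampus (0.036).

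Markers of other cell types moved in the same samples. At the high dose 3 of 4 tested blood markers rose. The log2 of the summed intensity of the 7 blood markers on the array was 15.98 to 16.78 in MK-801 and 15.64 to 16.54 in saline RNA. It was higher with MK-801 in 5 of 6 regions. In such a sum the brightest markers of a list weigh most. None of the 7 was below background on every array. Of the endothelial and mural markers 1 of 6 tested fell (Kdr), and their sum was 13.84 to 14.46 in MK-801 and 13.97 to 14.52 in saline RNA, higher with MK-801 in 1 of 6 regions. Of the astrocyte markers 1 of 7 fell (Sox9), with sums of 15.48 to 16.59 in MK-801 and 15.48 to 16.58 in saline RNA, higher in 1 of 6. The part of these cells in the Per1 value was not tested. In RNA of dissected tissue, fewer cells of a type and less RNA per cell cannot be told apart.

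**Figure D2:**
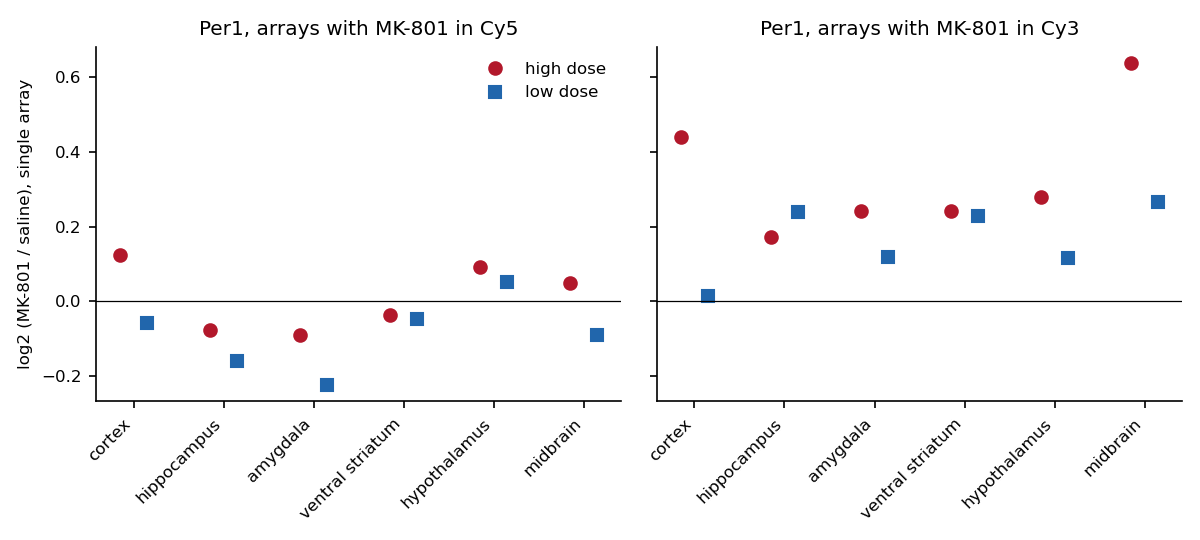
Log2 ratio of Per1 on each single array, by region (horizontal axis), for arrays with MK-801 RNA in Cy5 (left) and in Cy3 (right), at the high dose (red circles) and the low dose (blue squares). High-dose points reach 0.12 on the left and 0.64 on the right, and the high-dose point lies above the low-dose point in 11 of 12 comparisons within an orientation.

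At the low dose no clock gene passed. Of 23760 genes tested 2.58% did, against 0 of 10 clock genes by limma, with 3 of the 10 at an unadjusted p under 0.05 and 13.3% of all genes. Per1 averaged 0.04 ± 0.03 (adjusted p = 0.634), with pair means of 0.09 in the ventral striatum, 0.09 in the midbrain, 0.08 in the hypothalamus, 0.04 in the hippocampus, -0.02 in the cortex and -0.05 in the amygdala. It was above 0 in 4 of 6 regions, with a 95% interval of -0.02 to 0.10. Marker lists moved here too: 3 of 5 tested blood markers fell and 4 of 8 microglia markers rose. Kdr and Sox9 fell as at the high dose, 1 of 6 tested endothelial and mural markers and 1 of 7 astrocyte markers. The sums of these lists were higher with MK-801 in 0 and 1 of 6 regions. Of the oligodendrocyte markers 1 of 7 rose (Mag, list median 0.13), and 0 of 7 meningeal markers passed (list median -0.31). The log2 of the summed microglia intensity was 14.52 to 15.29 in MK-801 and 14.42 to 15.15 in saline RNA, higher with MK-801 in 6 of 6 regions. That of blood was 15.36 to 15.92 in MK-801 and 15.85 to 16.58 in saline RNA, lower with MK-801 in 6 of 6. The part of any of these lists in the low-dose clock values was not tested.

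Set directly against each other within regions, the doses did not differ past the threshold for any clock gene (0 of 9 by limma, against 1.58% of 22337 genes; 2 of 9 at an unadjusted p under 0.05, against 11.1% of genes). Both comparisons with saline share the saline rats, and which saline extracts they share is not stated. Per1 at the high dose exceeded its low-dose value by 0.14 ± 0.04 (n = 6 regions, adjusted p = 0.195), in 6 of 6 regions. Taken within an orientation, this difference is free of the dye effect only as far as that effect is the same on both arrays. The Per1 dye effect varied with an SD of 0.07 over 12 pairs. Within an orientation the difference was 0.01 to 0.18 with MK-801 in Cy5 (6 of 6 regions above 0) and -0.07 to 0.43 with MK-801 in Cy3 (5 of 6). Nr1d2, encoding REV-ERB beta, went the other way, lower at the high dose by 0.13 on average (-0.13 ± 0.03, adjusted p = 0.0938), also in 6 of 6 regions. Between the doses 4 of 4 tested blood markers were higher at the high dose (Alas2, Hba-a3, Hbb and Pf4, median difference 0.68 over the list), and 3 of 8 microglia markers were lower (C1qa, C1qc and P2ry12, median -0.12). Their part in the dose differences of the clock genes was not tested.

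**Figure D3:**
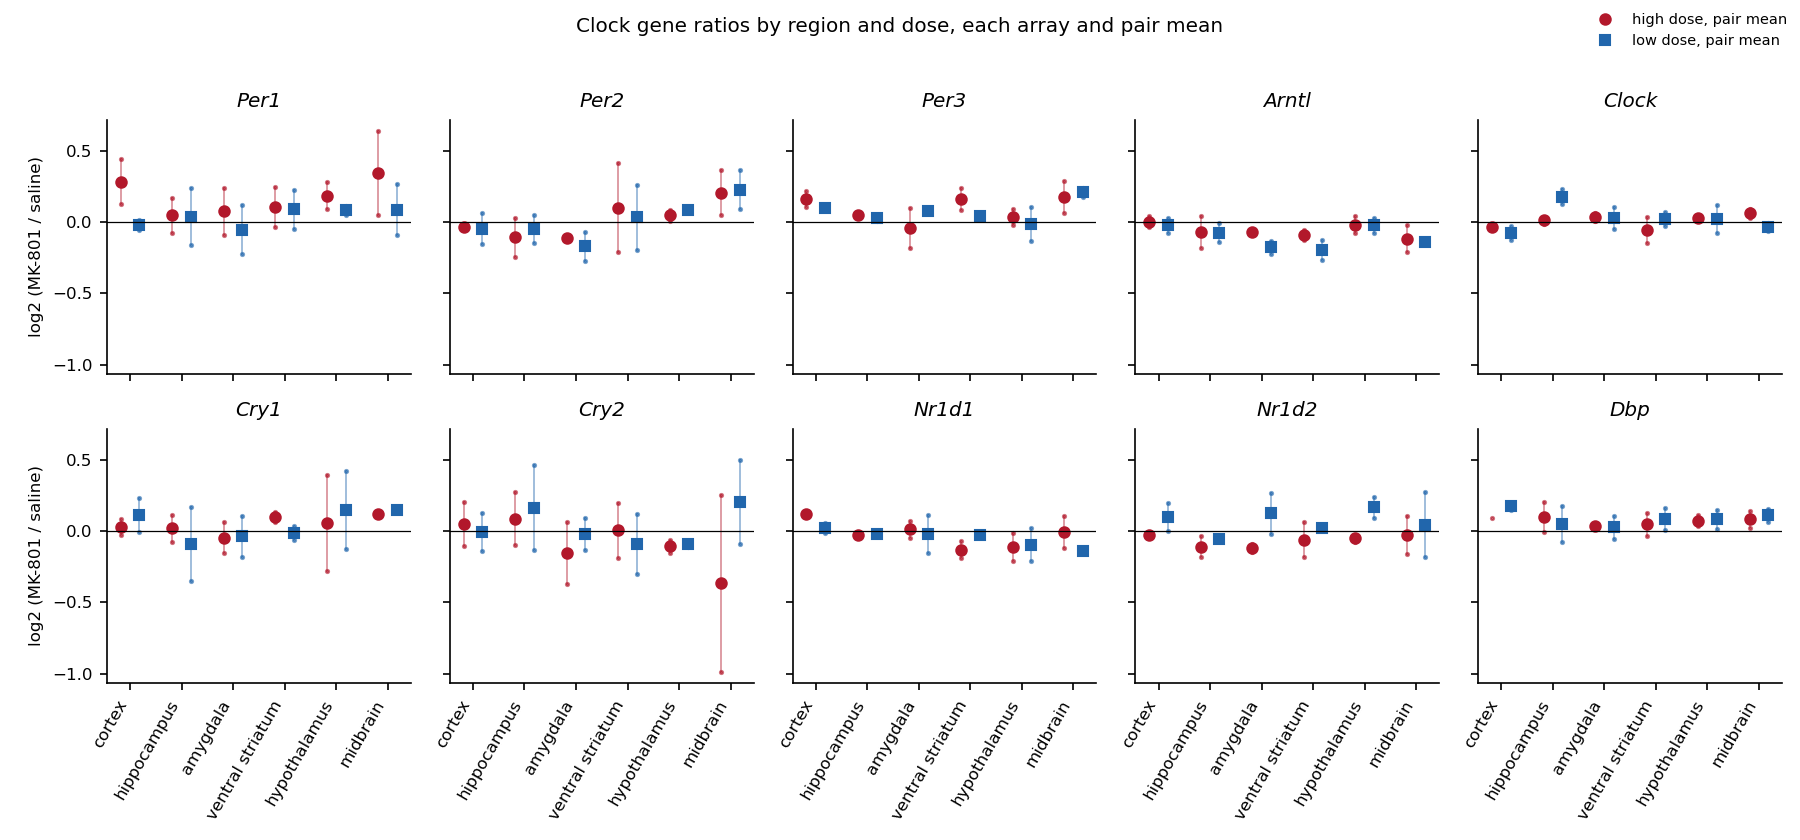
Log2 ratio of MK-801 over saline for the main probe of each clock gene (panels) in each region (horizontal axis). Small dots joined by a line are the 2 arrays of a pair and large symbols their mean, red circles for the high and blue squares for the low dose; Cry2 in the midbrain at the high dose has the widest pair, with arrays at -0.99 and 0.26, and Dbp has no pair mean for the cortex at the high dose.

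Among the Period genes, Per2, a core repressor of the loop, stayed near 0. It averaged 0.02 ± 0.04 at the high dose (adjusted p = 0.918) and 0.01 ± 0.04 at the low dose (adjusted p = 0.944). Its regions nevertheless ran in the same order at both doses at the ends: the midbrain was highest, at 0.21 and 0.23 for the high and the low dose, and the amygdala lowest, at -0.11 and -0.17. These pairs share a saline tissue source, so the likeness is given as values only. The Per2 probe lies on chromosome 9 (chr9:90850379-90850438, minus strand).

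Per3, a Period gene that is dispensable for the loop in mice, averaged 0.09 ± 0.03 at the high dose (adjusted p = 0.267, above 0 in 5 of 6 regions) and 0.07 ± 0.03 at the low dose (adjusted p = 0.309, 5 of 6). By region the high-dose values were 0.18 in the midbrain, 0.16 in the cortex and ventral striatum, 0.05 in the hippocampus, 0.04 in the hypothalamus and -0.04 in the amygdala. Of the 3 Per3 probes, the brightest was used. A second probe shares a stretch of 22 bases with it, in capitals below, and both read the minus strand of chromosome 5. The probes are shown because 1 of them supplies the Per3 values and their overlap lets neither count as independent of the other:

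Per3, main probe: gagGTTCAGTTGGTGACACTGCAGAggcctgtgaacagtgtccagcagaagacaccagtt

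Per3, second probe: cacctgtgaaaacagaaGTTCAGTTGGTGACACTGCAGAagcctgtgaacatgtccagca

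The main probe lies at chr5:168163039-168163098 (rn3), and the position printed for the second, 168163027 to 168163035, covers only 9 bases. The main probe was measured above background in 5 of 6 regions at the high and 6 of 6 at the low dose, the second in 2 and 5. The second probe averaged 0.02 ± 0.05 (SD, n = 6 regions) for the high dose and 0.04 ± 0.04 for the low dose. The remaining probe, elsewhere on chromosome 5, was well above background on 0 of 24 arrays and measures nothing here.

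Of the activating pair, Arntl was lower in treated rats in nearly every region without passing the threshold. At the low dose it averaged -0.11 ± 0.03 (adjusted p = 0.114, below 0 in 6 of 6 regions), with values of -0.20 in the ventral striatum, -0.18 in the amygdala, -0.14 in the midbrain, -0.07 in the hippocampus and -0.02 in both hypothalamus and cortex. At the high dose it averaged -0.06 ± 0.03 (adjusted p = 0.379), the midbrain being lowest at -0.12 and the cortex highest at 0.003, below 0 in 5 of 6 regions. Its dye effect was small, 0.03 ± 0.06 (SD, n = 12 pairs), and at the low dose 5 of 6 arrays of each orientation were below 0. A fit of all arrays with a dye term changed the call: the low-dose value had an adjusted p of 0.0473. That fit counted the arrays of a pair separately, although they may hold the same extracts. Its low-dose calls over all genes numbered 929, against 613 in the main fit, so it is not the stricter test. The probe lies on chromosome 1 (chr1:171281903-171281962, plus strand).

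Clock, the partner of Arntl and a histone acetyltransferase, could hardly be measured. Its probe was above background in 3 of 6 regions at the high dose, under the 4 required, and in 4 of 6 at the low dose, where it averaged 0.02 ± 0.03 (adjusted p = 0.833). The probe is listed on chromosome 14 over 1051 bases (chr14:34247245-34248295, plus strand).

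Neither cryptochrome, the main repressors of the Clock-Arntl dimer, changed past the threshold. Cry1 averaged 0.05 ± 0.03 at the high dose (adjusted p = 0.574) and 0.05 ± 0.04 at the low dose (adjusted p = 0.663), with regions between -0.09 and 0.15. Cry2 averaged -0.08 ± 0.05 at the high dose (adjusted p = 0.59) and 0.03 ± 0.04 at the low dose (adjusted p = 0.857). Cry2 had the widest dye effect of the 10 genes, at -0.21 ± 0.15 (SD, n = 12 pairs). In the midbrain its high-dose arrays gave -0.99 with MK-801 in Cy5 and 0.26 with MK-801 in Cy3, so that region's mean of -0.37 rests on 1 array. The other 11 arrays with MK-801 in Cy5 lay between -0.37 and -0.09, over both doses. Probes lie on chromosome 7 for Cry1 (chr7:20729256-20729315, plus strand) and chromosome 3 for Cry2 (chr3:76699255-76699314, minus strand).

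Of the REV-ERB genes, Nr1d1 averaged -0.02 ± 0.03 at the high dose (adjusted p = 0.847) and -0.05 ± 0.03 at the low dose (adjusted p = 0.507). Nr1d2 averaged -0.07 ± 0.02 at the high dose (adjusted p = 0.276), and every region was below 0, between -0.12 in the amygdala and -0.03 in the midbrain. At the low dose it averaged 0.07 ± 0.03 (adjusted p = 0.379), with 5 of 6 regions above 0. Of the low-dose regions only the hippocampus, at -0.06, lay within the range of the high-dose regions. How many of all genes show so little overlap was not counted. Nr1d1 is read on chromosome 10 (chr10:87557535-87557889, minus strand, 355 bases), and the files print no position for the Nr1d2 probe.

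Dbp, whose transcript swings widely over the day in most tissues, was slightly higher in treated rats wherever it was measured. At the high dose it averaged 0.07 ± 0.03 (adjusted p = 0.338) over 5 regions, as the cortex was left out because the scanner software marked its spot on replicate 1 as an outlier. These 5 regions lay between 0.03 in the amygdala and 0.10 in the hippocampus. At the low dose it averaged 0.09 ± 0.03 (adjusted p = 0.135), between 0.03 in the amygdala and 0.17 in the cortex, above 0 in 6 of 6 regions. With MK-801 in Cy3 all 12 arrays were above 0, and with MK-801 in Cy5 7 of 11 were. Its probe lies on chromosome 1 (chr1:96256131-96256190, plus strand).

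Genes around the core loop were read from 5 lists, whose counts stand against 2.21% of all genes past the threshold at the high dose, 2.58% at the low dose and 1.58% between the doses. The lists were chosen with earlier results of these data known, so their counts are a description only. Of 8 measured members of the list of other clock transcription factors, 0 rose and 1 fell at the high dose. That was Bhlhe40 (also known as Dec1), an E-box binding repressor of Clock and Arntl, at -0.21 ± 0.03 (n = 6 regions, limma adjusted p = 0.00386). Its regions were -0.35 in the midbrain, -0.24 in the hippocampus, -0.23 in the amygdala, -0.20 in the ventral striatum, -0.14 in the hypothalamus and -0.11 in the cortex. With the low dose Bhlhe40 stood at 0.01 ± 0.03 (adjusted p = 0.976), and the high dose lay below the low dose by -0.22 ± 0.03 (adjusted p = 0.00377) in 6 of 6 regions. The high-dose call of Bhlhe40 held in 18 of 21 alternative settings, against 6 of 21 for Per1. The settings share most of their data, so these counts are a description only. The other 4 of this list with the largest values were Nfil3 (0.06), Tef (0.05), Bhlhe41 (0.05) and Hlf (0.04). The list's median at the high dose was 0.02, against 0.00 over all genes tested (-0.001). Low-dose calls numbered 0 of 8 by limma, with 0 at an unadjusted p under 0.05.

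Enzymes that modify clock proteins, kinases and ubiquitin ligases among them, gave 0 of 19 past the threshold by limma in each of the comparisons, with 2 of 19 at an unadjusted p under 0.05 for the high dose, 3 for the low dose and 3 between the doses. Of all genes 12.1%, 13.3% and 11.1% were under that p in these comparisons. Their median was -0.01 at the high dose. Largest were Csnk1a1, a casein kinase, at -0.09 ± 0.03, the deubiquitinase Usp2 at 0.08 ± 0.03, Usp7 at -0.07 ± 0.05 and Btrc, a subunit of a ligase that marks Per proteins for breakdown, at -0.06 ± 0.05. Of 9 measured clock output genes, Alas1 passed at the high dose, at 0.15 ± 0.04 (adjusted p = 0.0492), a call kept in 4 of 21 alternatives. Alas1 makes the enzyme that starts haem synthesis, and haem is the ligand of the REV-ERB receptors. Not passing, Gys2 stood at 0.14 ± 0.04, Cdkn1a at 0.12 ± 0.04, Nampt at -0.05 ± 0.03 and Por at 0.04 ± 0.03. Of the 9 output genes 0 passed at the low dose by limma, with 3 at an unadjusted p under 0.05, and between the doses 0 of 9, with 0 at that p.

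A list of glucocorticoid and cAMP signalling genes, drawn up for pathways that act on the Period genes, held the largest values. At the high dose 4 of 11 rose and 0 fell, against 2.21% of all genes called, and at the low dose 3 of 11 rose and 0 fell, against 2.58%, while the list's medians were -0.02 and -0.01. As the list was drawn up with earlier results of these data known, its counts beside those shares are no test of enrichment. The members that rose are genes induced by these pathways or a receptor chaperone, and none of the list's transcription factors and coactivators, which act at promoters, passed at either dose. Sgk1, a kinase gene induced by glucocorticoids, rose by 0.63 ± 0.05 at the high dose (n = 5 regions, adjusted p = 0.000154) and by 0.45 ± 0.03 at the low dose (n = 6, adjusted p = 1.8e-05). Tsc22d3, which encodes the glucocorticoid-induced leucine zipper protein, rose by 0.34 ± 0.04 at the high dose (n = 5, adjusted p = 0.000937) and by 0.23 ± 0.04 at the low dose (n = 5, adjusted p = 0.00835). Fkbp5, a chaperone of the glucocorticoid receptor, rose by 0.19 ± 0.04 (adjusted p = 0.0302) and 0.17 ± 0.04 (adjusted p = 0.035) at the high and the low dose, calls kept in 8 of 21 alternatives at each dose. Sik1, a kinase that is induced through CREB and in the mouse suprachiasmatic nucleus limits the resetting of the clock, rose by 0.59 ± 0.09 at the high dose (adjusted p = 0.00623). Its regions were 1.13 in the cortex, 0.81 in the amygdala, 0.63 in the hippocampus, 0.45 in the hypothalamus, 0.32 in the ventral striatum and 0.20 in the midbrain. Sik1 at the low dose averaged 0.18 ± 0.07 (adjusted p = 0.287). Between doses, Sik1 and Sgk1 were higher with the high dose, by 0.41 ± 0.04 (adjusted p = 0.000133) and 0.18 ± 0.04 (adjusted p = 0.0399), calls kept in 20 of 21 and 5 of 20 alternatives. Crtc2, a coactivator of CREB, at -0.08 ± 0.03, Crem at 0.07 ± 0.03, the glucocorticoid receptor gene Nr3c1 at -0.07 ± 0.02 and Hsf1 at -0.04 ± 0.02 did not pass at the high dose.

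**Figure D4:**
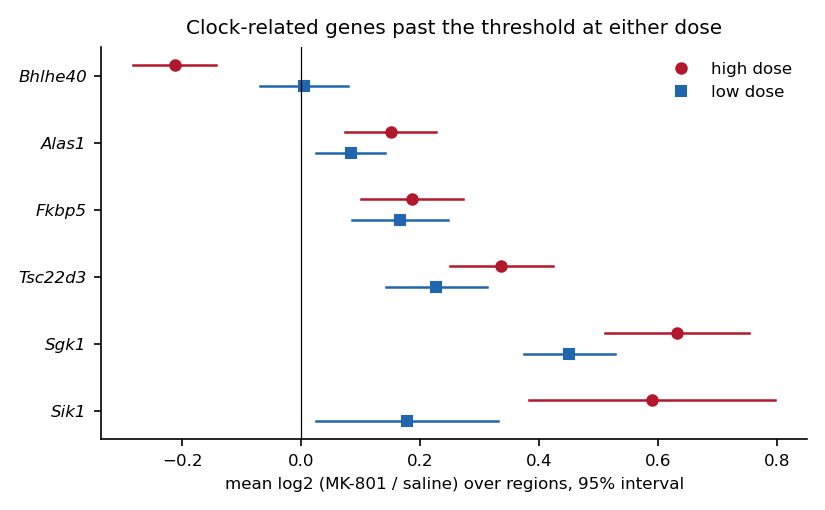
Mean log2 ratio of MK-801 over saline across regions, with 95% intervals, for the 6 genes of the clock-related lists that passed the threshold at either dose, at the high dose (red circles) and the low dose (blue squares). Bhlhe40 lies below 0 at the high dose (-0.21) and near 0 at the low dose, and Sgk1 and Sik1 lie farthest above 0.

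Genes that mark neurons of the suprachiasmatic nucleus, the master clock in the hypothalamus, passed the threshold in no comparison, with 0 of 8 past the threshold by limma at the high dose (0 at an unadjusted p under 0.05), 0 of 9 at the low dose (2) and 0 of 8 between the doses (2). The largest high-dose value, Avp at -0.33 ± 0.21, had a wide error, with regions from -1.91 to 0.18 and 4 of 6 below 0. At the low dose Avp averaged -0.38 ± 0.17 (limma adjusted p = 0.361), with regions from -1.70 to -0.05, 6 of 6 below 0. High-dose values of the others were -0.09 ± 0.05 for Vipr2, -0.07 ± 0.03 for Zfhx3 and -0.03 ± 0.07 for Grp. In the piece labelled hypothalamus, saline levels of 10 of the 13 genes on the array were above the mean of the other 5 pieces and 3 below, and 4 were highest there (Zfhx3, Vipr2, Rora and Rgs16). Rgs16 also stands on the thalamus list, and 6 of 6 thalamic markers were higher in this piece. Differences ran from 2.43 for Zfhx3 and 2.34 for Vipr2 down to -0.12 for Prokr2, -0.23 for Prok2, which was well above background on 0 of 4 saline channels there, and -1.04 for Grp. Vip was 1.5 above, yet highest in the cortex, and Avp was 0.25 above, yet highest in the amygdala. Six6, a transcription factor of that nucleus, was well above background on 1 of 4 saline channels of the hypothalamus piece. How much of the nucleus that piece held is therefore not known.

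The clock genes also differed between regions in saline rats. Each region has its own slide, so that slide and region cannot be told apart here, and the 4 saline channels of a region may hold the same extract, so their SD may be technical only. Dbp had the widest range, 3.67-fold, from 14.20 ± 0.28 in the ventral striatum, through 13.44 ± 0.11 in the hypothalamus, 13.28 ± 0.03 in the amygdala, 13.25 ± 0.13 in the cortex (n = 3 arrays) and 12.47 ± 0.74 in the hippocampus, to 12.32 ± 0.66 in the midbrain (log2 intensity, SD, n = 4 arrays). All arrays of the ventral striatum lay above all of every other piece. The cortex overlapped with both hypothalamus and amygdala, and the hippocampus with the midbrain. Of the 15 pairs of regions, 12 had arrays that did not overlap for Dbp, against 4 to 7 for the main probes of the other 9 genes. The same count was not made over all probes, so whether these counts are unusual here is not known. Cry1 was highest in the ventral striatum too (10.51 ± 0.05, next the hypothalamus at 10.05 ± 0.16) and lowest in the hippocampus (9.51 ± 0.41). Cry2 was highest in the hypothalamus (9.15 ± 0.12, next the hippocampus at 8.51 ± 0.52), with arrays of those neighbours overlapping. Per1 was highest in the cortex (10.42 ± 0.20) and lowest in the midbrain (9.44 ± 0.22), with the ventral striatum at 10.23 ± 0.40, the amygdala at 9.91 ± 0.11, the hippocampus at 9.88 ± 0.22 and the hypothalamus at 9.77 ± 0.14 between them, and no neighbours in that order were apart. Nr1d2 ran from 8.04 ± 0.18 in the ventral striatum to 7.31 ± 0.07 in the hippocampus, and Nr1d1 from 9.68 ± 0.20 in the hypothalamus to 9.09 ± 0.15 in the midbrain. Arntl was highest in the hypothalamus (11.35 ± 0.02) and lowest in the midbrain (9.96 ± 0.58), Per2 highest in the amygdala (11.36 ± 0.11) and lowest in the midbrain (9.96 ± 0.55). Per3 and Clock spanned only 0.44 and 0.29 on the log2 scale. With loess alone, without scaling between arrays, the highest region stayed the same for Per1, Per2, Arntl, Cry1, Cry2 and Dbp and changed for Per3, Clock, Nr1d1 and Nr1d2, and the lowest stayed for Arntl, Clock, Cry1 and Nr1d2 and became another for Per1, Per2, Per3, Cry2, Nr1d1 and Dbp.

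**Figure D5:**
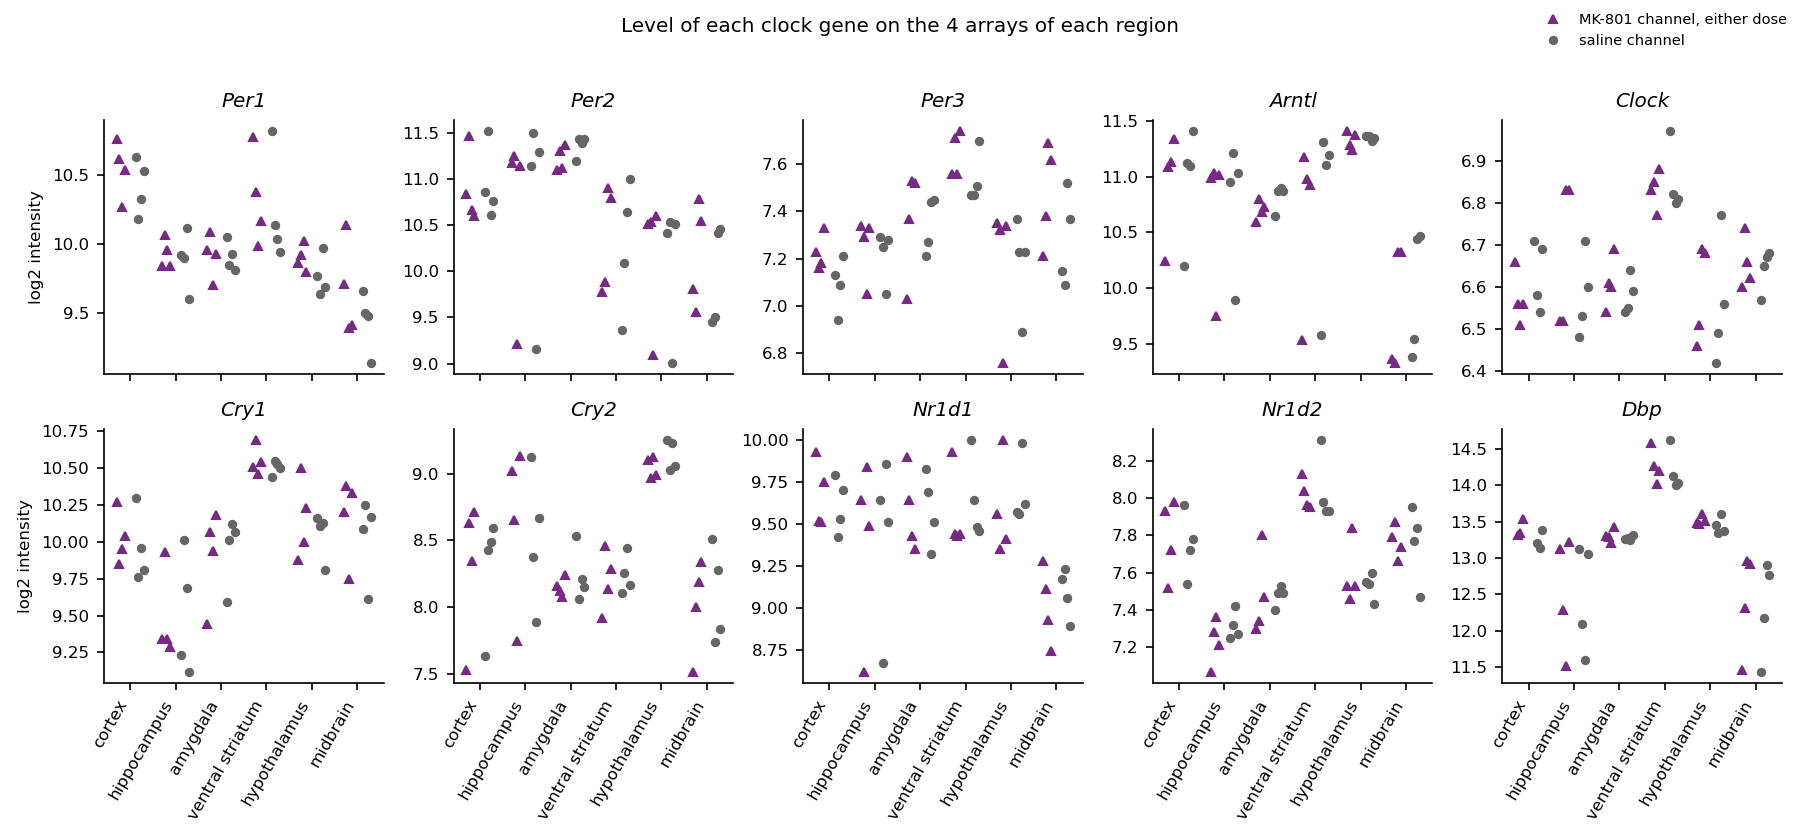
Log2 intensity of each clock gene (panels, each with its own vertical scale) on the 4 arrays of each region, with the MK-801 channel as purple triangles and the saline channel as grey circles. In Per2 and Arntl single arrays lie far below the others of their region in both channels, for instance at 9.21 in MK-801 and 9.16 in saline RNA for Per2 in the hippocampus, while the ratio stays near 0.

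Absolute levels of Per2, Arntl and Dbp differed from array to array within a region. The 4 saline channels of a region differed for Per2 with a root mean square SD of 0.67, larger than that of 98.6% of the 17694 probes of mean log2 intensity above 8, for Arntl of 0.52, larger than 93.4%, and for Dbp of 0.43, larger than 82.9%. Both channels of an array moved together: deviations from the region mean in the MK-801 and saline channels correlated at 0.97 for Per2 and 0.99 for Arntl over 24 arrays and 0.98 for Dbp over 23; both channels share slide, spot and hybridisation, and r is given as a description. On 1 low-dose hippocampus array Per2 read 9.21 in MK-801 and 9.16 in saline RNA, against 11.14 in MK-801 and 11.29 in saline RNA on its swapped partner. On that same array Dbp read 11.52 in MK-801 and 11.60 in saline RNA, against 13.22 in MK-801 and 13.05 in saline RNA on the partner. The root mean square ratio was 0.19 for Per2, 0.12 for Arntl and 0.11 for Dbp, below the SD of their levels, and the region orders of Per2 and Arntl and the wide range of Dbp rest on few arrays.

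Promoter windows of RefSeq (assembly GRCr8, 250 bases before to 50 after each gene start) were found for 9 of the 10 genes, in 11 windows, all but Cry1. Elements known from the loop were searched on both strands. The E-box CACGTG is in 6.42% of all 33469 windows and in 1 of the 11. The D-box TTATGTAA, or its reverse complement, is in 0.893% of all and in 1 of the 11, the RORE to which REV-ERB proteins bind in 0.726% of all and in 1 of the 11, and the CRE TGACGTCA in 1.83% of all and in none of the 11. The short stretches that hold them are shown, with the element in capitals, since they are the matches found in the clock genes. These are an E-box before Nr1d1, a D-box before Per2 and a RORE before Arntl. An E-box before Bhlhe40, which is not among the 10 genes or the 11 windows, is shown beside them. No E-box as spelled was in the Per or Cry2 windows.

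Bhlhe40, E-box, chr4:143174218-143174247, plus strand: agcgttgtccaaCACGTGagactcatgtga

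Nr1d1, E-box, chr10:84229628-84229657, minus strand: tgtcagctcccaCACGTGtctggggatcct

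Per2, D-box, chr9:99497167-99497196, minus strand: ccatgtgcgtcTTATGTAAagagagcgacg

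Arntl, RORE, chr1:176766299-176766328, plus strand: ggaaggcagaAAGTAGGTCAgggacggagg

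The Per1 window held none of these 4 elements as spelled. A match of letters is no evidence of binding, and the lack of one in so short a window is no evidence of its absence. Whether these elements bear on the ratios was not tested.

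Of the clock genes with values in all 12 combinations and tested at both doses, Per1 had the largest root mean square ratio (0.15). Among 10682 genes of comparable size tested at both doses, the 5 whose 12 values correlated best with those of Per1 included Gja4, a connexin of arterial endothelium (Pearson r = 0.87), Crispld2 (0.86) and the monooxygenase Fmo1 (0.86), besides 2 probes with no gene symbol in the tables used here (0.88 and 0.85). The 12 values share saline tissue and arrays within a region, so these r are a description of likeness only.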

How the data were processed

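Spot intensity in both channels, with local background, came from the deposited scanner output of Agilent Feature Extraction 9.5.3.1, per the file headers and the submitters' processing notes; the authors' deposited value table holds log10 ratios of treated over saline. The log10 scale and direction were checked against the scanner signals. The clock genes, the gene lists and the tests were chosen with earlier results of these data known. Background was corrected with normexp (offset 50) and ratios normalised by loess within each array in limma 3.58.1 under R 4.3.3, with control spots at weight 0, outlier spots left out and swapped arrays turned. A dye-swapped pair counted as 1 replicate, and the brightest probe represented a gene. The 6 regions entered lmFit and eBayes with an intercept, with Benjamini-Hochberg adjustment over all genes. On simulated data 80% (high dose), 92% (low dose) and 75% (between doses) of genes changed by 0.25 (log2) were recovered, at 22993, 23760 and 22337 genes. The simulated regions were independent, whereas real regions share rats. A change of 0.25 is also larger than that of any clock gene (Per1, 0.17), so these shares do not give the recovery for those genes. Saline levels were taken after loess and Aquantile. Named were all 10 clock genes, list genes past the threshold and up to 4 others per list with the largest high-dose value. Each region has its own slide, and 3 scan days hold 2 regions each. Precision is limited by the 9 rats, 3 of them given saline, which the regions share, as well as by the number of arrays. All columns of the deposited table belonged to a sample.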

Additional observations from a re-analysis of the deposited data

Results flagged for a closer look

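Cry2 in the midbrain stood apart from the other regions in the difference between doses, at -0.57, against -0.13 for the nearest region. The gap took up 0.655 of the range of the 6 regions. It was the single such case among 30 sets of regions tested (10 genes in 3 comparisons), and chance alone marks about 1 set in 20. The value rests on the high-dose array with MK-801 in Cy5, at -0.99, and the swapped array gave 0.26.

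The effect of MK-801 differed between the doses for 3 genes of the clock-related lists. Sik1 at the high dose exceeded its low-dose value by 0.41 (limma adjusted p = 0.000133), and Sgk1 by 0.18 (adjusted p = 0.0399). Bhlhe40 was lower at the high dose, at -0.22 (adjusted p = 0.00377). Each pointed the same way in every region measured, 6 of 6 for Sik1 and Bhlhe40 and 5 of 5 for Sgk1. No clock gene of the 10 differed between doses past the threshold. Blood markers (4 of 4 tested, median difference 0.68) were higher and microglia markers (3 of 8, median -0.12 over the list) lower at the high dose than at the low dose, and their part in these differences was not tested.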

How the results depend on the processing

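At the high dose 507 genes passed across regions. The count was 292 with processed signals, 141 with median centring, 287 in the deposited table, 7612 and 6635 with only replicate 1 or only replicate 2 of each pair, where the dye effect does not cancel, 301 to 425 without 1 region, and 327, 188 and 89 within scan days 1, 2 and 3. At the low dose it was 613, and 318, 359 and 313 with the first 3 of these settings, 7377 and 8398 with a single replicate, 400 to 569 without 1 region, 119, 55 and 216 within scan days, and 929 with all arrays and a dye term. Between the doses it was 353, and 211, 106 and 206 with the first 3, 146 with replicate 1 alone, 239 to 317 without 1 region, and 126, 69 and 52 within scan days. Within a scan day only 2 regions entered, and the other causes were not tested.

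Of the clock genes, 1 was called at the high dose. It was 0 with processed signals, median centring, offset 16, the deposited table, no filter on dim probes, scan day as a block and within each scan day, 0 to 1 without 1 region, and 2 and 5 with only replicate 1 or only replicate 2. At the low dose it was 0, but 1 (Arntl) with all arrays and a dye term, and 1 and 4 with only replicate 1 or only replicate 2. Between the doses it was 0 in every setting. Per1 at the high dose was 0.01 with replicate 1 alone (adjusted p = 0.862), 0.34 with replicate 2 alone (adjusted p = 0.00155), 0.14 to 0.20 without 1 region, and 0.19, 0.21 and 0.12 within the scan days. Cry2 was past the threshold in opposite directions by dye: 0.15 at the high dose with replicate 2 alone and -0.15 at the low dose with replicate 1 alone, against -0.32 and 0.20 on the other orientation.

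Of the single-gene values under an alternative, 505 of 583 for the clock genes kept direction and side of the threshold, 15 lost and 10 gained a call, 51 changed sign without a call and 2 (Cry2, above) with one. For the list genes it was 280 of 368, with 75 losing and 2 gaining a call and 11 changing sign without one. No paired analysis was possible because the replicate numbers mark dye orientation, and regions are already paired within each comparison of the doses. Dim signal left Clock untested at the high dose.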
